A study of Mus musculus with 26 samples.

Results

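Cells recognise foreign or misplaced nucleic acids with a small set of receptors, and 10 genes for such sensors and their adaptors were followed in mouse mammary tumors and tumor organoids given antisense oligonucleotides. The genes were chosen by symbol: the endosomal receptors Tlr3, Tlr7 and Tlr9 with their chaperone Unc93b1, the adaptors Myd88 and Ticam1, the cytosolic sensors Ifih1, Zbp1 and Aim2, and the mitochondrial adaptor Mavs. All 10 were found once each among the 37310 genes of the count tables. Toll-like receptors in endosomes meet RNA and DNA that a cell has taken up, TLR3 through the adaptor TRIF (the product of Ticam1) and TLR7 and TLR9 through MyD88, and all of them need Unc93b1 to leave the endoplasmic reticulum. In the cytosol, MDA5 (the product of Ifih1) binds long double-stranded RNA and signals through MAVS, ZBP1 binds left-handed nucleic acid helices and can start cell death, and AIM2 binds double-stranded DNA and forms an inflammasome. Much of TLR7, TLR9 and AIM2 in a tissue is made by macrophages, dendritic cells and B cells, and Zbp1, Ifih1 and Tlr3 are known to be raised by type I interferon. TLR9 is known for sensing DNA with CpG dinucleotides, which phosphorothioate oligonucleotides can carry.

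The mice were C57BL/6 and carried MMTV-PyMT, the polyoma middle T oncogene under a viral promoter active in mammary epithelium, so that every group shares the transgene. They received subcutaneous oligonucleotide at 125 mg/kg per week for several weeks, and tumor RNA was sequenced from 3 tumors with Malat1 ASO1, 4 with Malat1 ASO2 and 3 with scASO, the control oligonucleotide. Organoids were grown from such tumors in Matrigel with FGF2, and oligonucleotide was added at 500 nM for 6 days and renewed on day 3. They formed 4 groups of 4 libraries, labelled Malat1 ASO1, Malat1 ASO2, scASO and Mock, the last with no oligonucleotide named. The labels do not give the ages of the mice, the chemistry and sequences of the oligonucleotides, or whether replicates came from separate animals or cultures, so p-values measure the spread between these libraries, which may in part be technical. An ASO (antisense oligonucleotide) is a short modified strand that pairs with a complementary RNA, here the nuclear noncoding RNA Malat1, and can direct its cleavage.

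Reads assigned to genes ranged from 9939520 to 51363552 per tumor library and from 23973533 to 65146030 per organoid library. Values are given as CPM, counts relative to library size with one TMM scaling over all 26 libraries. Malat1 remaining after both ASOs was 45.6% of the scASO level in tumors (exact permutation test, two-sided p = 0.0333) and 35.4% in organoids (exact p = 0.121). Malat1 went against the label in 2 organoid libraries: the library labelled ASO2 replicate 1 had 1485 CPM, and the library labelled scASO replicate 2 had 119 CPM, while the other ASO organoids had 87.0 to 307 CPM and the other scASO organoids 781 to 1191 CPM. Without both, 15.8% remained in organoids (exact p = 0.0167), and values without these libraries are given beside the organoid results that rest on them. Both pairs of libraries numbered 1 and 2 that hold one of them (ASO2 and scASO) were closer in their counts (chi-square per degree of freedom at most 43.4) than the other 22 pairs within organoid groups (108 to 447). Whether the 2 libraries were exchanged cannot be told from the labels, and they are used as labelled. The defining luminal genes Epcam, Krt8 and Krt18 were abundant in all organoids (at least 1289, 896 and 891 CPM) and in all tumors (at least 633, 560 and 469 CPM). A list of 13 leukocyte and macrophage genes summed to 52.1 to 238 CPM in organoids and to 325 to 1355 CPM in tumors. In the organoids the T and NK cell genes Cd8a, Nkg7, Ncr1 and Gzmb and the B cell gene Ms4a1 had 0 reads in every library, which allows up to 3 reads in each, for counting error only. Other genes of the same lists were seen in every organoid, Cd4 at 0.126 to 1.17 CPM (up to 53 reads) and Cd22 at 0.0419 to 0.783 CPM (up to 22 reads).

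Per length of exon in GENCODE M21, which may differ from the annotation the authors counted on, the members fell into 2 tiers in both systems. In organoids Unc93b1 was the highest at 34.0 ± 7.61 CPM per kb (SD, n = 16), ahead of Myd88 at 24.4 ± 4.77 and Mavs at 14.2 ± 1.70. Zbp1, Tlr3, Ifih1 and Ticam1 followed at 8.95, 8.75, 8.52 and 7.76 CPM per kb, with ranges that overlapped from each to the next. In tumors Unc93b1, Zbp1 and Myd88 lay close together at 30.2 ± 5.08, 28.1 ± 15.6 and 26.7 ± 4.61 CPM per kb (SD, n = 10). Ifih1 at 12.7, Mavs at 11.9, Tlr3 at 10.5 and Ticam1 at 9.95 CPM per kb came next in tumors, each overlapping its neighbour. The lower tier held the same 3 genes in both systems, all below every library's Ticam1. In organoids these were Aim2 at 0.241 ± 0.114, Tlr7 at 0.108 ± 0.0721 and Tlr9 at 0.0384 ± 0.0273 CPM per kb (SD, n = 16). In tumors they were Tlr7 at 1.1 ± 0.440, Aim2 at 0.909 ± 0.426 and Tlr9 at 0.442 ± 0.218 CPM per kb (SD, n = 10). Neighbours within the lower tier overlapped in range in both systems.

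The members are spread over 7 chromosomes. In GRCm38 Ifih1 lies on chromosome 2 from 62595798 to 62646255, Mavs from 131234063 to 131248025 and Zbp1 from 173206612 to 173218923 on the same chromosome, and Myd88 (119335934 to 119341411) and Tlr9 (106222598 to 106226883) share chromosome 9. Aim2 lies on chromosome 1 (173350879 to 173466040), Tlr3 on 8 (45395665 to 45411080), Ticam1 on 17 (56269319 to 56276786), Unc93b1 on 19 (3935186 to 3949340) and Tlr7 on X (167304929 to 167330558). All 10 are annotated as protein-coding. The submitters' processing notes name build mm9, so these positions locate the genes and took no part in the counting. Exons of Myd88 overlap those of Acaa1a on the opposite strand, and since the use of strand in counting is not stated, Myd88 values are uncertain to that extent.

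RefSeq promoter windows, 250 bases before to 50 after the annotated start, were found for 7 of the 10 members; Tlr7, Unc93b1 and Zbp1 were not matched. A total of 5 motifs, chosen after the members' values were seen, were searched on both strands. The IRF element, searched as a pair of GAAA 2 bases apart and bound by interferon regulatory factors, was in 3.44% of all 32851 windows and in those of Ifih1 and Myd88. The PU.1 site GAGGAAGT, bound by a factor of macrophages and B cells, was in 3.20% of all windows and in those of Tlr9 and Aim2. The AP-1 site TGACTCA was in 5.2% of all windows and in that of Tlr9. The other 2 motifs, a pair of 10-base forms of the NF-kB site, were in 0.155% and 0.0883% of all windows and in 0 of the 7. No match overlapped another. A match is a description of letters, not of binding. The Myd88 window also holds an IRF element, and Pearson's r of Myd88 with the interferon-response genes over the 10 tumors was -0.10, and 0.77 without ASO1 tumors 1 and 2. The Tlr3 window holds 0 matches to the exact letters searched, and its r was 0.93. Near matches were not counted, so other forms of these elements may be present. Whether a match goes with r was not tested. Windows are shown for 3 of the 4 members with a match, as examples of each motif found, with each match in capitals. They are the Ifih1 window chr2:62646206-62646505 (minus strand, IRF element), the Tlr9 window chr9:106222348-106222647 (plus strand, AP-1 site, then the PU.1 site on the other strand) and the Aim2 window chr1:173420354-173420653 (plus strand, PU.1 site), all in GRCm38.p6. The start that RefSeq gives for Aim2 lies inside the longer gene span above.
Ifih1: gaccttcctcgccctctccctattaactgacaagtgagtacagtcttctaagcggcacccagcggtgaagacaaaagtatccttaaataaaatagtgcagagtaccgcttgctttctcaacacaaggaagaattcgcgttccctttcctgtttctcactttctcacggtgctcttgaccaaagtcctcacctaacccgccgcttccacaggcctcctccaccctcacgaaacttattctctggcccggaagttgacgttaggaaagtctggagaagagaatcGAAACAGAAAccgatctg
Tlr9: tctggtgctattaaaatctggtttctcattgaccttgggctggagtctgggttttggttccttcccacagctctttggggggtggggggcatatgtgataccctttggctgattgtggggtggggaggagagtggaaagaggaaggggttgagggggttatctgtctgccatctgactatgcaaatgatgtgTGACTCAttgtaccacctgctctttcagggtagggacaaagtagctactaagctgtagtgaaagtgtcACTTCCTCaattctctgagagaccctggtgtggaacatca
Aim2: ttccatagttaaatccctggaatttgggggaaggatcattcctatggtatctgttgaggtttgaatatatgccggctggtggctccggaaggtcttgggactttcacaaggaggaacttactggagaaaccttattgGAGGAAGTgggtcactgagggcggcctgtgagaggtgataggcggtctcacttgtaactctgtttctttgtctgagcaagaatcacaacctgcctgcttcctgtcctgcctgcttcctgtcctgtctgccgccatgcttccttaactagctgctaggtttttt

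In tumors, no member passed the test after either Malat1 ASO. With both ASOs together, the quasi-likelihood test of edgeR (p adjusted over all genes by Benjamini-Hochberg, threshold 0.05) against scASO called 0 of the 10 members, beside 0% of the 17354 genes tested, and 0 members had an unadjusted p under 0.05, beside 5.86% of all genes. The members' median log2 fold change was 0.08, with 6 estimates higher and 4 lower, beside a median of 0.05 over all genes. With ASO1 alone 0 of 10 were called (0.00576% of all genes) and with ASO2 alone 0 of 10 (0%), with medians of 0.09 and 0.13 beside 0.05 and 0.04 over all genes. Neither gave a member with an unadjusted p under 0.05, beside 8.45% (ASO1) and 5.14% (ASO2) of all genes. Both ASOs share the scASO tumors. ASO1 against ASO2 also gave 0 calls (0%), the smallest p being that of Myd88 (log2 fold change -0.30 ± 0.18, SE, adjusted p = 0.546 by edgeR). DESeq2 and limma voom called 0 members in these 4 comparisons too, while DESeq2 called 20 to 149 genes in all.

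Among the endosomal receptors, Tlr3, which recognises double-stranded RNA, had the smallest p over both ASOs. Tlr3 was at 43.4, 83.1 and 51.7 CPM in ASO1 tumors 1 to 3 and at 51.5, 52.1, 50.3 and 70.0 CPM in ASO2 tumors 1 to 4, against 55.0, 44.4 and 45.7 CPM in scASO tumors 1 to 3. ASO1 tumor 2 and ASO2 tumor 4 stood above the others, and the groups overlapped. The log2 fold change was 0.26 ± 0.20 (SE) over both ASOs, with an adjusted p of 0.858 by edgeR, 0.31 ± 0.24 with ASO1 and 0.22 ± 0.22 with ASO2. Without ASO1 tumor 2 the ASO1 estimate was -0.014.

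Tlr9, the receptor for CpG DNA, was at 1.58, 0.534 and 2.99 CPM in ASO1 tumors and at 1.38, 1.48, 1.23 and 0.750 CPM in ASO2 tumors, against 1.90, 2.51 and 1.04 CPM in scASO tumors. These values rest on 8 to 103 reads per tumor. The groups overlapped, ASO1 tumor 3 being the highest and ASO1 tumor 2 the lowest of all 10. With ASO2 the log2 fold change of Tlr9 was -0.56 ± 0.56 (SE, adjusted p = 0.894 by edgeR), with a 95% interval from -1.65 to 0.53, which spans 0 widely. Tlr7, the receptor for single-stranded RNA, was highest in ASO1 tumor 3 (7.86 CPM) and lowest in ASO1 tumor 2 (2.26 CPM), with 3.22 to 6.41 CPM in ASO2 tumors and 2.82 to 4.86 CPM in scASO tumors. Unc93b1 ranged from 76.9 to 121 CPM with ASO1 and from 80.9 to 103 CPM with ASO2, against 68.0 to 102 CPM with scASO.

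Over the 10 tumors the coefficient of variation of CPM was 16.9% for Ticam1, 17.3% for Myd88 and 5.72% for Mavs, and 16.8% for the chaperone Unc93b1, while the other members lay between 22.8% and 55.3%. Ticam1 was at 27.6, 31.3 and 27.4 CPM in ASO1 tumors and at 17.6, 31.8, 27.6 and 34.7 CPM in ASO2 tumors, against 32.4, 33.8 and 33.2 CPM in scASO tumors. All 3 ASO1 tumors lay below all 3 scASO tumors, which holds for 16.5% of all genes in either direction, while the ASO2 tumors overlapped them. The log2 fold change of Ticam1 over both ASOs was -0.21 ± 0.18 (SE, adjusted p = 0.870 by edgeR). It was -0.24 ± 0.20 with ASO2 and -0.07 without ASO2 tumor 1, the lowest library. Myd88 ranged from 49.7 to 66.4 CPM with ASO1 and from 61.5 to 95.7 CPM with ASO2, against 61.8 to 75.7 CPM with scASO. Mavs was at 37.4 to 42.4 CPM with ASO1 and 35.7 to 41.7 CPM with ASO2, against 37.1 to 41.0 CPM with scASO. Its 95% interval over both ASOs ran from -0.20 to 0.26 on the log2 scale, and the adjusted p was 0.980 by edgeR.

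Zbp1, a sensor of left-handed helices, had the coefficient of variation of 55.3%, the largest of the 10 members in tumors. Zbp1 was at 45.1, 236 and 83.9 CPM in ASO1 tumors and at 78.7, 90.2, 70.2 and 148 CPM in ASO2 tumors, against 87.0, 60.4 and 93.5 CPM in scASO tumors. ASO1 tumor 2 was the highest and ASO1 tumor 1 the lowest of all 10, so that the ASO1 group spanned the others. The log2 fold change was 0.61 ± 0.50 with ASO1 (SE, adjusted p = 0.761 by edgeR) and 0.44 ± 0.43 over both ASOs (adjusted p = 0.882). Without ASO1 tumor 2 these estimates were -0.30 and -0.015, and with limma voom quality weights -0.21 and -0.026. Ifih1 was also highest in ASO1 tumor 2, at 169 CPM, with 71.7 and 82.5 CPM in the other ASO1 tumors, 76.2 to 124 CPM with ASO2 and 97.3 to 122 CPM with scASO. Aim2 was at 2.18, 1.89 and 6.29 CPM in ASO1 tumors and at 4.21, 2.2, 4.87 and 2.62 CPM in ASO2 tumors, against 2.02, 3.39 and 2.13 CPM in scASO tumors. Here ASO1 tumor 3 stood highest and the groups overlapped. Aim2 had a log2 fold change of 0.48 ± 0.46 over both ASOs (SE, adjusted p = 0.881 by edgeR) and 0.48 ± 0.53 with ASO1, which became -0.31 without ASO1 tumor 3.

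**Figure D1:**
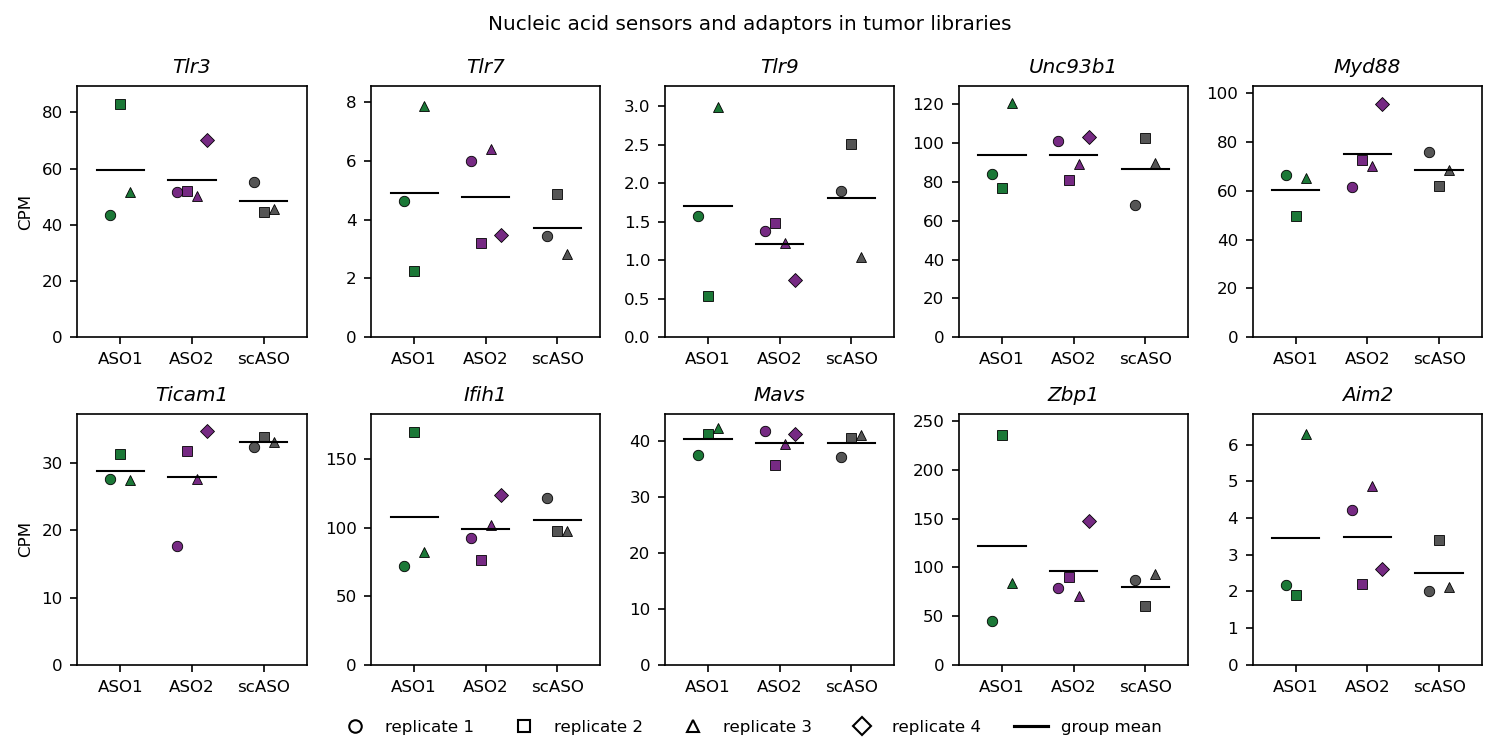
CPM (linear axis from 0) of the 10 members in each tumor library, one panel per gene, with ASO1 (n = 3), ASO2 (n = 4) and scASO (n = 3) from left to right, marker shapes for replicate numbers and a bar at each group mean. ASO1 tumor 2 is highest for Zbp1 (236 CPM), Ifih1 (169 CPM) and Tlr3 (83.1 CPM), and ASO1 tumor 3 for Tlr7, Tlr9, Unc93b1 and Aim2, while Mavs stays between 35.7 and 42.4 CPM.

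Single tumors stood out for several members at once. Those named above had all been given a Malat1 ASO, as had 7 of the 10 tumors. Each member's log2 CPM was therefore compared over the 10 tumors with the log2 of the summed CPM of marker genes. The lists were 14 interferon-response genes and 13 leukocyte and macrophage genes, 20 relations in all, none of the members being on either list. Zbp1 followed the interferon genes with Pearson's r = 0.97 (permutation test, two-sided p = 0.000120, adjusted p = 0.00240) and Spearman's rho = 0.82 (permutation p = 0.00581, adjusted p = 0.0290), and r was 0.92 without ASO1 tumors 1 and 2, which lie farthest from the median. Tlr3 did so with r = 0.93 (permutation p = 0.000270, adjusted p = 0.00270) and rho = 0.92 (permutation p = 0.000570, adjusted p = 0.0114), and r was 0.87 without those tumors. For Ifih1 r was 0.81 (permutation p = 0.00492, adjusted p = 0.0197) and rho 0.62 (permutation p = 0.0602, adjusted p = 0.201), and r dropped to 0.43 without those tumors, on which the relation rests. The summed interferon genes were at 591, 3737 and 1276 CPM in ASO1 tumors and at 1638, 1269, 1187 and 2553 CPM in ASO2 tumors, against 1338, 841 and 1334 CPM in scASO tumors.

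Members known from myeloid cells were set against the leukocyte genes in the same way. Tlr7 followed the leukocyte genes with r = 0.90 (permutation test, two-sided p = 0.000410, adjusted p = 0.00273) and rho = 0.87 (permutation p = 0.00250, adjusted p = 0.0167), and r was 0.77 without ASO1 tumors 2 and 3, the farthest from the median. Aim2 did so with r = 0.86 (permutation p = 0.000570, adjusted p = 0.00285) and rho = 0.89 (permutation p = 0.00126, adjusted p = 0.0126), and r was 0.81 without those tumors. For Unc93b1 r was 0.75 (permutation p = 0.0134, adjusted p = 0.0448) and rho 0.78 (permutation p = 0.0106, adjusted p = 0.0424), and r dropped to 0.54 without those tumors. Tlr9 gave r = 0.66 with the leukocyte genes (permutation p = 0.0379, adjusted p = 0.0946) and rho = 0.42 (permutation p = 0.232, adjusted p = 0.421), and r was 0.0085 without those tumors, on which the value rests. With the interferon genes Tlr9 gave r = -0.72 (permutation p = 0.0185, adjusted p = 0.0529) and rho = -0.60 (permutation p = 0.0744, adjusted p = 0.213), and r was -0.70 without ASO1 tumors 1 and 2. Neither relation of Tlr9 passed after adjustment. The summed leukocyte genes were at 618, 325 and 1355 CPM in ASO1 tumors and at 1039, 634, 862 and 821 CPM in ASO2 tumors, against 644, 755 and 460 CPM in scASO tumors. In bulk tissue, fewer cells of a type and less RNA per cell cannot be told apart. No batch of these tumors is named in the labels, and the part of treatment, depth or tissue composition in these relations was not tested.

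**Figure D2:**
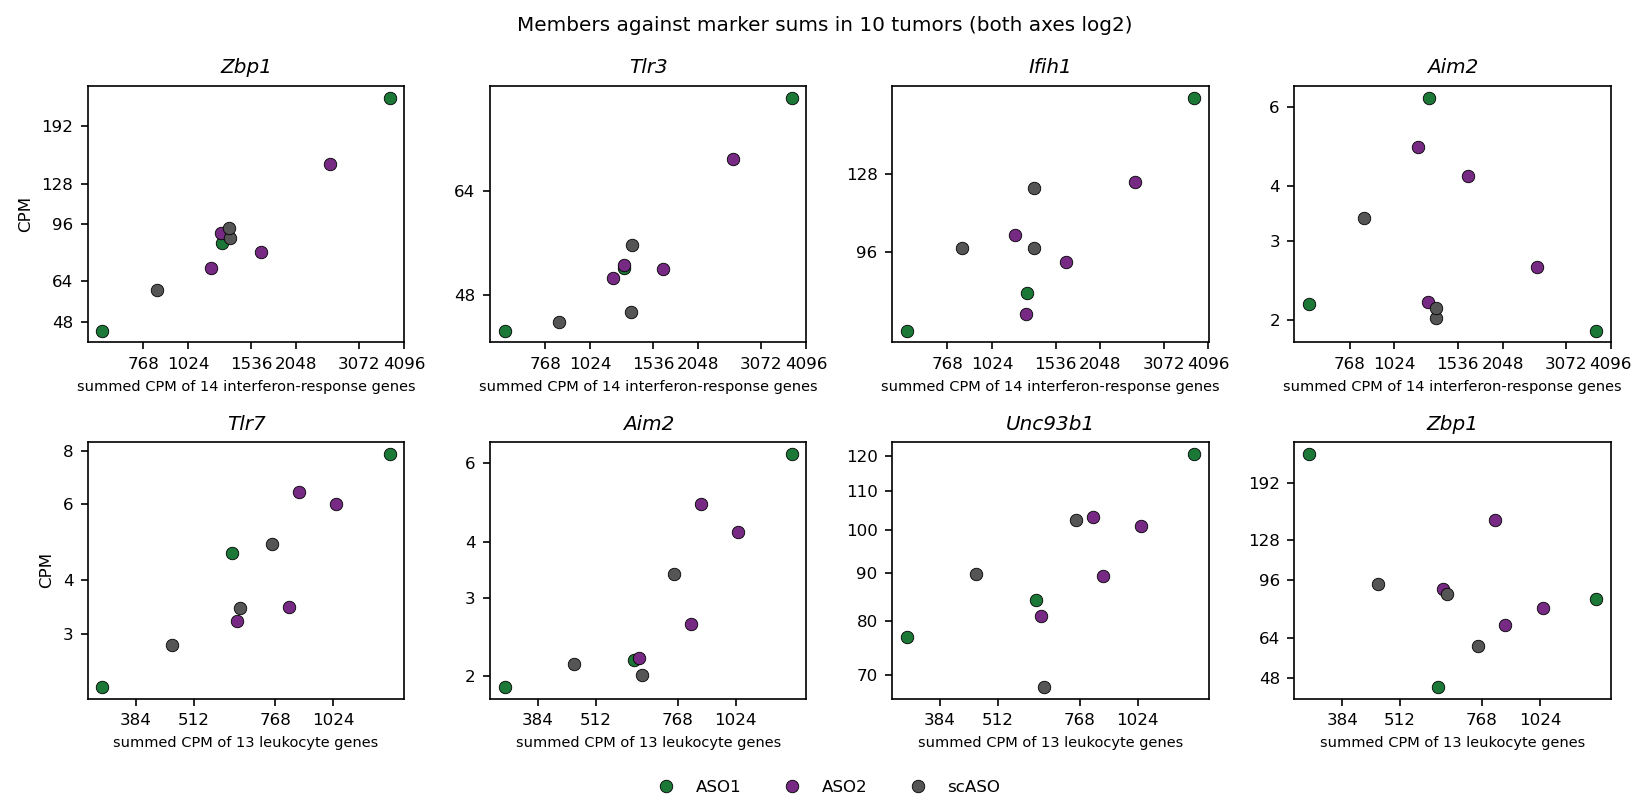
Each point is 1 of 10 tumors, colored by oligonucleotide, with a member's CPM against the summed CPM of 14 interferon-response genes (top row) or 13 leukocyte and macrophage genes (bottom row), both axes on a log2 scale. Zbp1 (r = 0.97) and Tlr3 (r = 0.93) rise with the interferon genes, Tlr7 (r = 0.90) and Aim2 (r = 0.86) with the leukocyte genes, while r is -0.18 for Aim2 with the interferon genes and -0.45 for Zbp1 with the leukocyte genes.

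Across the 10 tumors the genes most like each member among 13202 tested (mean log2 CPM not under 1) are given as a description. Zbp1 was most like Oasl1 (Pearson's r = 0.99), Parp12 (0.98) and Ifit1 (0.97), all known as interferon-induced genes, and Tlr3 was most like Parp12 (0.96), Hmga1 and Fdft1 (0.95 each). Ifih1 was most like Parp9, Itpk1 and Eif2ak2 (0.92, 0.92 and 0.91), Eif2ak2 being a kinase that double-stranded RNA activates. Tlr7 was most like the kinase Syk of immune receptors, Adam23 and Abca9 (0.95 each), and Aim2 like the myeloid inhibitory receptor Pirb (0.95), Nfam1 and Nr1d1 (0.94 each). Unc93b1 was most like Hfe (0.90), Fcer1g (0.88), an adaptor of Fc receptors, and Fam89a (0.87). Among the nearest to Tlr9 were Slit3 (0.96) and Pld1 (0.95). The nearest to Myd88 were Manf (0.93), Ssr4 (0.91) and Prdx6 (0.90), those to Ticam1 were Tada2b (0.96), Uaca (0.96) and Gm15429 (0.96), and those to Mavs were Dglucy (0.89), Gstm1 (0.87) and Mapk9 (0.87). With 10 points and 13202 genes, high values arise for every member, and they carry no test.

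Organoids with scASO were compared with tumors with scASO, which sets the cultured tumor cells beside whole tissue. Of the 10 members 4 were lower in organoids and 0 higher by edgeR's quasi-likelihood test at an adjusted p under 0.05, beside 12.1% of 18695 genes lower and 11.4% higher. The members' median log2 fold change was -0.58, beside -0.00 over all genes. Dose, route and time differ between the systems, so that treatment and culture cannot be told apart here.

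The receptors known from immune cells differed most. Tlr9 was at 0.0276, 0.111, 0.348 and 0.0414 CPM in scASO organoids 1 to 4, resting on 1 to 8 reads, against 1.90, 2.51 and 1.04 CPM in scASO tumors. The highest organoid lay below the lowest tumor, and the log2 fold change was -3.81 ± 0.75 (SE, adjusted p = 0.00102 by edgeR). Tlr9 did not reach the count filter among organoids alone and entered this joint fit through the tumors. Its call could therefore only be in the lower direction, and the size of the change is uncertain at so few reads. Tlr7 was at 0.359, 0.333, 1.31 and 0.580 CPM in scASO organoids, against 3.45, 4.86 and 2.82 CPM in scASO tumors. Again the groups did not overlap, and the log2 fold change was -2.54 ± 0.59 (SE, adjusted p = 0.00383 by edgeR). Over all libraries, 0.127 to 1.31 CPM of Tlr7 in 16 organoids lay below 2.26 to 7.86 CPM in 10 tumors, and 0.0267 to 0.348 CPM of Tlr9 below 0.534 to 2.99 CPM.

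Aim2 was at 0.608, 0.639, 0.609 and 0.704 CPM in scASO organoids, against 2.02, 3.39 and 2.13 CPM in scASO tumors, with no overlap. Its log2 fold change was -1.97 ± 0.53 (SE, adjusted p = 0.0106 by edgeR), and the call was lost without scASO tumor 2 (-1.69, adjusted p = 0.0560). All 16 organoids (0.214 to 1.72 CPM) lay below all 10 tumors (1.89 to 6.29 CPM). Tlr7, Tlr9 and Aim2 were the 3 members for which this held, as it did for 5.68% of all genes.

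Ticam1 was at 24.7, 24.2, 23.1 and 17.2 CPM in scASO organoids, against 32.4, 33.8 and 33.2 CPM in scASO tumors. The groups did not overlap, the scASO tumors being within 2.11% of their mean (SD), and the log2 fold change was -0.57 ± 0.18 (SE, adjusted p = 0.0265 by edgeR). The call was lost without any 1 of the 3 scASO tumors (adjusted p = 0.0590, 0.0796 and 0.0736), without scASO organoid 4 (0.0790), and with Mock in place of scASO organoids (-0.40, adjusted p = 0.129). Over all libraries organoids (17.2 to 28.8 CPM) and tumors (17.6 to 34.7 CPM) overlapped for Ticam1.

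Zbp1 was at 18.7, 21.8, 51.4 and 13.4 CPM in scASO organoids, against 87.0, 60.4 and 93.5 CPM in scASO tumors. The groups did not overlap, a pattern that 5 members showed in the lower direction, beside 20.9% of all genes. With a log2 fold change of -1.61 ± 0.65 (SE) Zbp1 did not pass (adjusted p = 0.0752 by edgeR). It passed with DESeq2 (adjusted p = 0.0371), with limma voom (0.000127) and when the mean of the 3 oligonucleotide groups was compared between organoids and tumors (-1.74, adjusted p = 0.000394 by edgeR). The comparison of 3 groups took organoid libraries of the same replicate number as independent. Such libraries deviated together, so its p-values may be too small. Ifih1 (-0.58 ± 0.42) and Mavs (0.23 ± 0.14) passed in that comparison of 3 groups each (-0.63, adjusted p = 0.0276, and 0.24, adjusted p = 0.0134 by edgeR), and Mavs was the only member called higher there. That comparison called 10901 of 18695 genes, and limma voom called 10886, so most genes passed in both. Tlr3 (0.14 ± 0.37), Unc93b1 (0.04 ± 0.22) and Myd88 (0.00 ± 0.21) had adjusted p of 0.814, 0.898 and 0.995 by edgeR, with 95% intervals of -0.58 to 0.85, -0.38 to 0.47 and -0.40 to 0.40.

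**Figure D3:**
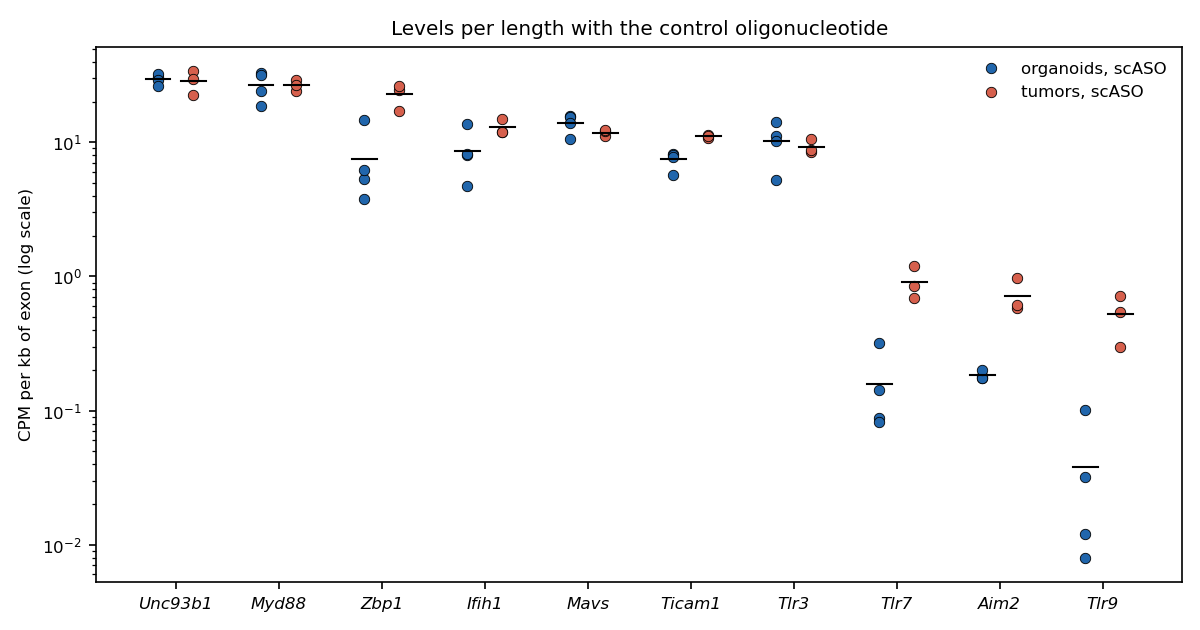
CPM per kb of exon (log axis) of each member in scASO organoids (left, n = 4) and scASO tumors (right, n = 3), one point per library with a bar at the mean, genes ordered by their tumor level. The organoid points lie below all tumor points for Zbp1, Ticam1, Tlr7, Aim2 and Tlr9, and overlap them for the other 5 members.

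Genes of several immune cell lists were lower in organoids too. In scASO organoids against scASO tumors, edgeR called 10 of 13 leukocyte and macrophage genes lower at an adjusted p under 0.05 (median log2 fold change -3.24). Also lower were 9 of 10 T and NK cell genes, 4 of 8 dendritic cell genes tested and 2 of 4 B cell genes tested. Of these lists' genes 0 were higher, beside 12.1% of all genes lower and 11.4% higher. However, 8 T and NK cell genes, 2 dendritic cell genes and 3 B cell genes had 0 reads in all scASO organoids. Where tested, such genes passed the count filter through the tumors and could be called only lower. For them the shares over all genes are no fair measure. The neutrophil genes, not counted here, summed to 5.84 to 384 CPM over all organoids and to 10.1 to 64.0 CPM over all tumors. Siglech, a marker of plasmacytoid dendritic cells, which express much Tlr7 and Tlr9, had 0 to 0.0254 CPM in organoids and 0.313 to 1.31 CPM in tumors. Not all genes of the dendritic list went this way. Ccr9 had 0 to 0.290 CPM in organoids and 0 to 0.296 CPM in tumors, and Zbtb46 had medians of 5.52 and 5.70 CPM. Of 14 interferon-response genes 3 were lower and 0 higher (median -1.39), and of 9 luminal epithelial genes 0 were called. The part of immune cells in the lower Tlr7, Tlr9 and Aim2 counts was not tested. Without the libraries labelled scASO replicate 2 and ASO2 replicate 1, the same 4 members were called, Tlr9 at -3.75, Tlr7 at -2.32, Aim2 at -1.97 and Ticam1 at -0.61 (adjusted p = 0.00675, 0.0197, 0.0329 and 0.0459 by edgeR).

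Genes that work with the members were counted from lists chosen with earlier results known. Of 17 genes for transport and processing of endosomal receptors, 2 were higher and 4 lower in scASO organoids than in scASO tumors. They included the exonuclease Pld4, which trims nucleic acids in endosomes (-4.04 ± 0.76), the cathepsins Ctss (-2.70 ± 0.67) and Ctsl (1.16 ± 0.27), which cleave these receptors, and D330045A20Rik (Tasl), an adaptor for IRF5 (-2.39 ± 0.83, adjusted p = 0.0400 by edgeR). Of 24 signalling genes 1 was higher and 6 lower, with the ubiquitin ligase Traf3 at 0.96 ± 0.25, the TAK1 partner Tab1 at -0.63 ± 0.15, the kinase Irak2 at -0.89 ± 0.21 and the IκB kinase Ikbkb at -0.66 ± 0.17. Of 23 other cytosolic sensors and partners tested, 1 was higher and 3 lower. These were the DNA sensor Cgas (0.92 ± 0.31), the dNTPase Samhd1 (-0.97 ± 0.16), the 2-5A synthetase Oas2 (-3.12 ± 0.95) and the inflammasome sensor Nlrp3 (-1.76 ± 0.57). Of 10 cytokine genes tested, Tnf was higher (2.77 ± 0.81) and Ccl4 (-3.02 ± 0.77), Il12b (-5.41 ± 1.46) and Il1b (-2.26 ± 0.81) were lower. These shares stand beside 23.5% of all genes called in either direction. Il12b had 0 reads in all 16 organoids, so it entered the fit through the tumors and could be called only lower. The size of its fold change is not a measured one. Trex1, a cytosolic DNase, had 0 reads in all 26 libraries, which allows up to 3 reads in each, for counting error only. Reads that fit more than 1 gene were not counted, and overlap of Trex1 with other genes was not examined. Whether Trex1 was expressed therefore cannot be told from these counts.

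In tumors 0 genes of the same lists were called after both ASOs, where 21 of 23 other cytosolic sensors, 8 of 10 cytokine genes and 14 of 14 interferon-response genes had higher estimates (medians 0.27, 0.75 and 0.70), beside 56.9% of all genes (median 0.05). Without ASO1 tumor 2, a setting chosen after the data were seen, these counts were 13 of 23, 10 of 10 and 10 of 14 (medians 0.057, 0.75 and 0.051), beside 53.9% of all genes (median 0.025). The median summed level of the interferon-response genes was 1276 CPM in the 7 ASO tumors and 1334 CPM in the 3 scASO tumors. Cxcl9, a chemokine for T cells, had the smallest p among the cytokines (1.92 ± 0.84, adjusted p = 0.827 by edgeR), and Irak3, an inhibitor of IRAK signalling, among the signalling genes (-0.90 ± 0.31, adjusted p = 0.827). Of 13 leukocyte genes 12 had higher estimates (median 0.41). In organoids 0 genes of these lists were called after both ASOs, with 8 of 14 interferon-response genes higher in estimate (median 0.10), beside 52.2% of all genes, and 11 of 13 leukocyte genes lower (median -0.76), beside 47.8%. Without the 2 libraries whose Malat1 went against their labels, 4 of 14 interferon-response genes were higher in estimate (median -0.062) and 11 of 13 leukocyte genes lower (median -0.75).

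In organoids, no member passed the test after either Malat1 ASO. Tlr9, with 1 to 15 reads per organoid, did not reach the count filter, and 9 of 10 members were tested. Over both ASOs against scASO 0 of 9 were called by edgeR, beside 0% of 17126 genes, and 0 had an unadjusted p under 0.05 (1.06% of all genes). The members' median log2 fold change was 0.02, beside 0.01 over all genes. ASO1 and ASO2 each gave 0 calls against scASO and against Mock, and ASO1 gave 0 against ASO2, each beside 0% of all genes. These comparisons share controls. DESeq2 called 0 members in each.

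Replicate numbers paired the organoid libraries, and with the number as a block edgeR again called 0 members against scASO (0% of 17421 genes). Tlr7 had the smallest p over both ASOs. It was at 0.246, 0.228, 0.705 and 0.547 CPM in ASO1 organoids 1 to 4 and at 0.226, 0.127, 0.478 and 0.409 CPM in ASO2 organoids, against 0.359, 0.333, 1.31 and 0.580 CPM in scASO organoids. The scASO library was the highest of the 3 in each number as labelled, numbers 1 and 2 each holding 1 of the 2 libraries whose Malat1 went against their labels, and the groups overlapped. For Tlr7 the log2 fold change was -0.79 ± 0.52 (SE, unadjusted p = 0.150, adjusted p = 1.00 by edgeR), and -0.78 ± 0.21 with the block (unadjusted p = 0.00238, adjusted p = 0.199). The values rest on 4 to 40 reads. Without the 2 libraries whose Malat1 went against their labels the log2 fold change was -0.96, and -0.84 with the block (adjusted p = 0.427 by edgeR). Of the 13 leukocyte genes 11 had lower estimates in the same comparison, and their sum was 52.1 to 216 CPM in ASO organoids and 68.6 to 185 CPM in scASO organoids; their part in the Tlr7 values was not tested.

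Myd88, the adaptor of most Toll-like receptors, was at 74.8, 60.0, 56.8 and 51.4 CPM in ASO1 organoids and at 56.2, 54.9, 66.5 and 48.9 CPM in ASO2 organoids, against 84.2, 81.1, 61.9 and 47.7 CPM in scASO organoids. The groups overlapped, with a log2 fold change of -0.23 ± 0.16 over both ASOs (SE, adjusted p = 1.00 by edgeR). Limma voom with quality weights called Myd88 over both ASOs (-0.44, adjusted p = 0.0410) and with ASO2 (-0.52, adjusted p = 0.00782), where it called 1029 and 3974 genes in all. Without the 2 libraries the estimate was -0.15 over both ASOs. Tlr3 had a log2 fold change of -0.35 ± 0.10 with the block (SE, unadjusted p = 0.00310, adjusted p = 0.199 by edgeR) and did not pass, beside 18.3% of all genes with an unadjusted p under 0.05 in that fit. Without the 2 libraries the blocked estimate of Tlr3 was -0.27 ± 0.10 (adjusted p = 0.467 by edgeR).

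Aim2 was at 0.575, 1.17, 0.970 and 1.52 CPM in ASO1 organoids and at 0.734, 0.950, 1.03 and 1.09 CPM in ASO2 organoids, against 0.608, 0.639, 0.609 and 0.704 CPM in scASO organoids. All 4 ASO2 organoids lay above all 4 scASO organoids, which held for 1.59% of all genes in either direction, and the ASO1 organoids overlapped. Without the library labelled ASO2 replicate 1 and that labelled scASO replicate 2, the ASO2 organoids (0.950 to 1.09 CPM) still lay above the scASO organoids (0.608 to 0.704 CPM). Over both ASOs the log2 fold change was 0.64 ± 0.45 (SE, adjusted p = 1.00 by edgeR), and 0.68 ± 0.56 without the 2 libraries. Mock organoids spanned both, at 0.214, 0.365, 0.609 and 1.72 CPM, from 8 to 41 reads.

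The remaining members overlapped between ASO and scASO organoids. The range was 22.4 to 61.4 CPM in the 8 ASO organoids and 27.4 to 74.1 CPM in the 4 scASO organoids for Tlr3, 26.3 to 95.9 and 38.4 to 111 CPM for Ifih1, and 41.5 to 55.9 and 35.3 to 52.2 CPM for Mavs. Zbp1 ranged from 8.0 to 59.7 CPM in ASO organoids and from 13.4 to 51.4 CPM in scASO organoids, and the untested Tlr9 from 0.0317 to 0.265 and from 0.0276 to 0.348 CPM.

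The control oligonucleotide itself was set against Mock, to see whether any oligonucleotide moved the sensors. Of 9 members tested 0 were called, without the block (0% of all genes) and with it (0.718%), and with the block 0 were called for ASO1 (2.31%) and ASO2 (1.68%) against Mock too. Without the block, Unc93b1 was the only member with an unadjusted p under 0.05 (1.59% of all genes), and with it Unc93b1 and Tlr7 had one. It was at 92.7, 97.7, 87.8 and 79.7 CPM in scASO organoids 1 to 4, against 107, 164, 115 and 90.3 CPM in Mock organoids. Each scASO library lay below the Mock library of its number as labelled, while the groups overlapped. This gave a log2 fold change of -0.42 ± 0.19 (SE, unadjusted p = 0.0438, adjusted p = 1.00 by edgeR), and -0.39 ± 0.12 with the block (unadjusted p = 0.00595, adjusted p = 0.151), beside 15.6% of all genes with an unadjusted p under 0.05. Without the 2 libraries the estimate was -0.45 ± 0.21 (unadjusted p = 0.0567, adjusted p = 1.00 by edgeR), and -0.30 ± 0.09 with the block (adjusted p = 0.129). Tlr7 was at 0.160, 0.213, 0.710 and 0.419 CPM in the Mock organoids, and scASO against Mock gave 0.76 ± 0.25 with the block (SE, adjusted p = 0.176 by edgeR).

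Against the same Mock libraries, Unc93b1 was at 81.3, 129, 99.8 and 74.1 CPM in ASO1 organoids (-0.32 ± 0.19) and at 126, 114, 106 and 84.3 CPM in ASO2 organoids (-0.16 ± 0.19, SE), with adjusted p of 1.00 by edgeR. With the block and without the 2 libraries whose Malat1 went against their labels, a setting chosen after the data were seen, the ASO1 difference passed (-0.33, adjusted p = 0.0328 by edgeR), beside 1153 of 17691 genes called. Ticam1 was at 24.0, 20.4, 24.0 and 17.9 CPM in ASO1 organoids, at 23.7, 23.2, 27.1 and 21.5 CPM in ASO2 organoids and at 24.7, 24.2, 23.1 and 17.2 CPM in scASO organoids, against 25.0, 28.8, 24.5 and 22.4 CPM in Mock organoids. Its log2 fold change against Mock was -0.24 ± 0.14 with ASO1 and -0.18 ± 0.14 with scASO (SE, adjusted p = 1.00 by edgeR for each). In all 4 numbers as labelled both the ASO1 and the scASO library lay below the Mock library for Ticam1, and with the block the values were -0.25 ± 0.09 (unadjusted p = 0.0215, adjusted p = 0.220 by edgeR) and -0.19 ± 0.09 (unadjusted p = 0.0636, adjusted p = 0.348), neither of which passed. Of the interferon-response genes, 12 of 14 had lower estimates with scASO than with Mock (median -0.39), beside 51.9% of all genes, and 0 were called. Their summed level was 281, 338, 922 and 305 CPM in scASO organoids 1 to 4, against 317, 963, 808 and 336 CPM in Mock organoids, the widest gap being in number 2, whose scASO library is one of the 2 with Malat1 against its label. Without both libraries the count was 11 of 14 (median -0.22).

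**Figure D4:**
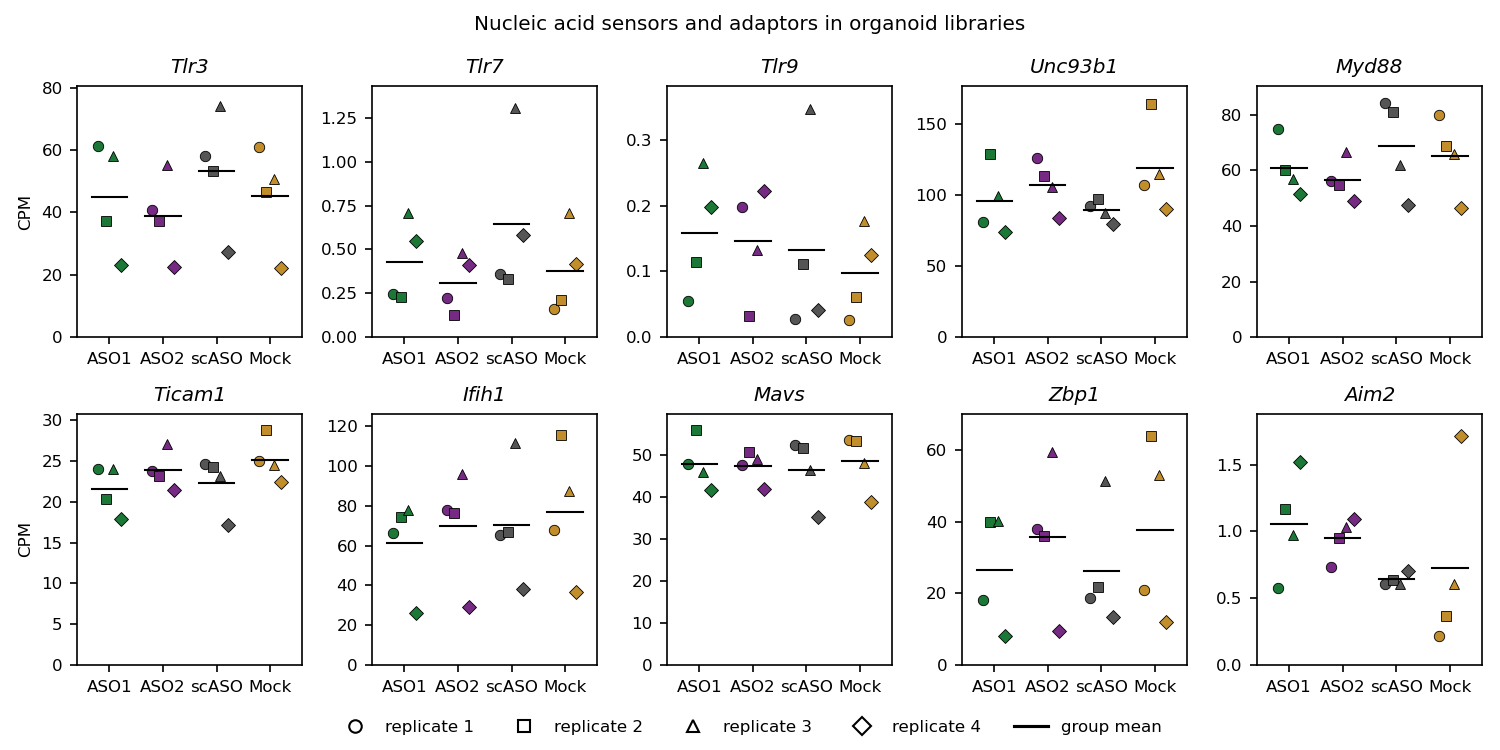
CPM (linear axis from 0) of the 10 members in each organoid library, one panel per gene, with ASO1, ASO2, scASO and Mock from left to right (n = 4 each), marker shapes for replicate numbers and a bar at each group mean. Number 4 (diamonds) is lowest in every group for Zbp1 (8.0 to 13.4 CPM), Ifih1, Tlr3 and Mavs, and each ASO group overlaps scASO for every member except Aim2, where ASO2 lies above scASO.

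For the median gene, though not for every member, most of the spread between organoids lay between replicate numbers. The share of variance of log2 CPM between numbers was 86.7% for Ifih1, 85.5% for Tlr3, 81.7% for Zbp1, 79.3% for Mavs and 76.5% for Tlr7, beside a median of 70.4% over all genes, and lay between 43.1% and 57.3% for the other 5 members. Between treatments the members' shares ran from 3.07% for Mavs to 30.0% for Unc93b1, beside a median of 8.53%. Zbp1 was at 8.0 to 13.4 CPM in the 4 libraries of number 4, at 40.3 to 59.7 CPM in number 3, at 21.8 to 64.1 CPM in number 2 and at 18.2 to 38.1 CPM in number 1. Ifih1 was at 26.3 to 38.4 CPM in number 4, and at 65.3 to 116 CPM in the other numbers. Tlr3 was at 22.2 to 27.4 CPM in number 4 and at 37.2 to 74.1 CPM in the others. Sums of marker lists differed in number 4 as well. A list of 7 neutrophil genes summed to 227 to 384 CPM in its 4 libraries and to 5.84 to 12.9 CPM in the other 12. The list did not move as a whole. Over all organoids S100a8 reached 276 CPM, S100a9 105 CPM and Cxcr2 2.93 CPM. Csf3r was at most 0.406 CPM, Mpo had at most 1 read, and Ly6g and Retnlg had 0 reads. Leukocyte and macrophage genes summed to 137 to 238 CPM in number 4 and to 52.1 to 185 CPM in the others, and interferon-response genes to 187 to 336 CPM in number 4 and to 278 to 963 CPM in the others. The part of cell composition in the lower Zbp1, Ifih1 and Tlr3 of number 4 was not tested.

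The 2 libraries whose Malat1 went against their labels also stood out within their numbers for Zbp1. The library labelled ASO2 replicate 1 had 38.1 CPM, against 18.2 to 20.9 CPM in the other libraries of number 1, and the library labelled scASO replicate 2 had 21.8 CPM, against 35.9 to 64.1 CPM in the other libraries of number 2. What the numbers stand for is not given in the labels.

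The change with both ASOs was also compared between the systems, as tumor response minus organoid response in a fit of all 26 libraries. Of the 10 members 0 differed (0% of 18695 genes) by edgeR, and 0 had an unadjusted p under 0.05. The smallest p was that of Tlr7, whose log2 fold changes of 0.40 ± 0.42 in tumors and -0.79 ± 0.52 in organoids gave a difference of 1.16 ± 0.71 in the joint fit (SE, unadjusted p = 0.114, adjusted p = 1.00), followed by Tlr3 (0.60 ± 0.44) and Ticam1 (-0.25 ± 0.22).

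**Figure D5:**
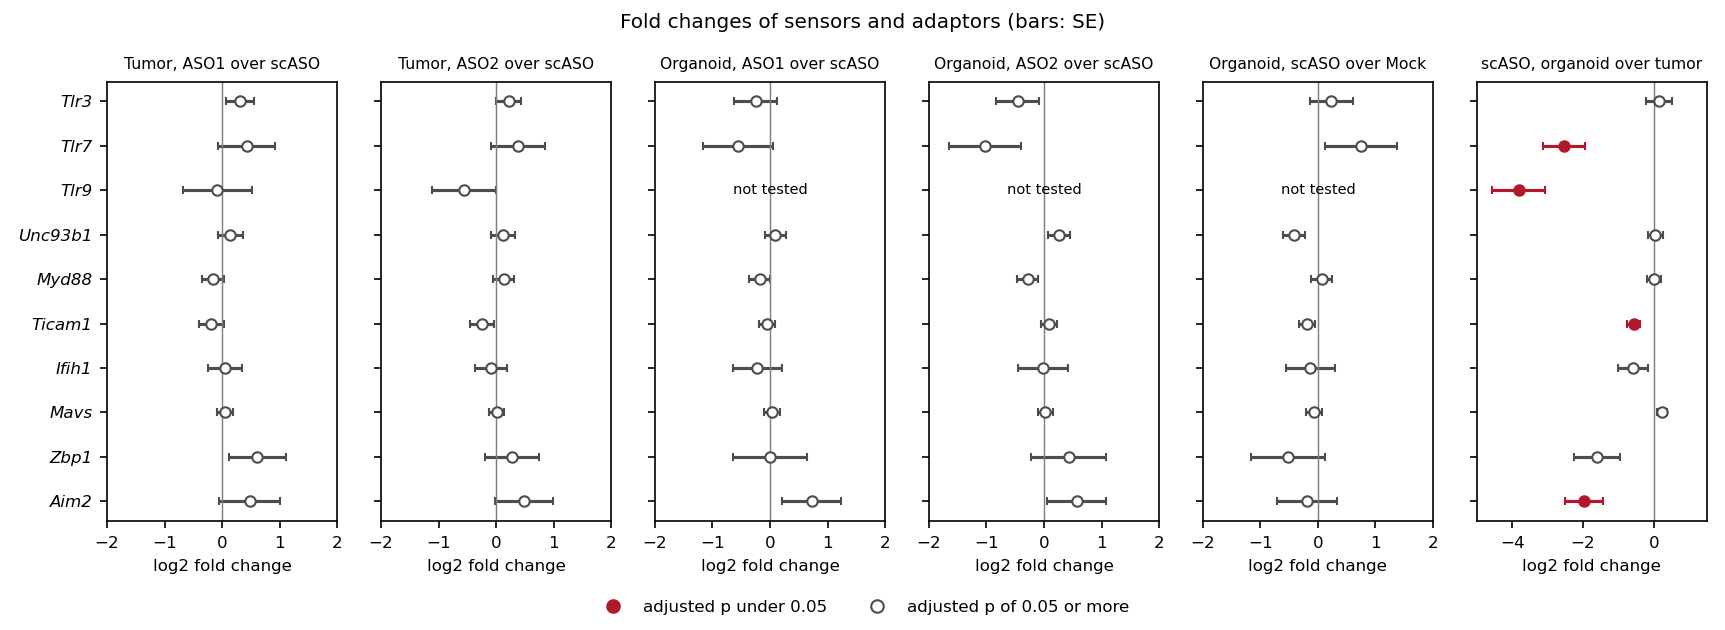
Log2 fold changes with standard errors from edgeR's quasi-likelihood fits for 6 comparisons (panel titles, first-named group over second), filled red where the adjusted p is under 0.05; Tlr9 was not tested within organoids. Only the comparison of scASO organoids with scASO tumors, drawn on a wider axis, has filled points: Tlr9 (-3.81), Tlr7 (-2.54), Aim2 (-1.97) and Ticam1 (-0.57). Tlr9 entered that comparison through its tumor counts and could be called only lower.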

How the data were processed

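Polyadenylated RNA of 10 tumors and 16 organoid cultures was extracted with TRIzol and sequenced from TruSeq libraries, per the labels' protocols. The authors deposited 1 table of raw read counts per gene for each library. The submitters' processing notes name build mm9 and the tools STAR, HTSeq, CASAVA, FastQC and DESeq2; their versions, options, annotation and use of strand are not stated there. Symbols and positions come from GENCODE M21 on GRCm38, by gene ID (32620 of 37310 with a symbol). Summary lines (per 100 reads in genes, 8.34 to 24.5 in no feature, 3.90 to 8.70 ambiguous, 21.2 to 44.0 with several alignments) were left out of library sizes.

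Tumors and organoids were fitted separately, each with all its groups, and jointly for comparisons between them, with edgeR 4.0.16 in R 4.3.3 (TMM, filterByExpr with a minimum count of 10 and total of 15, quasi-likelihood F-test, Benjamini-Hochberg threshold 0.05 over all genes). Standard errors were taken as the size of the log2 fold change over the root of F, and 95% intervals are 1.96 errors wide on each side. Log2 CPM used a prior count of 2. Relations over tumors had 100000 permutations. The fit was tested on simulated data. Alternatives were DESeq2 1.42.0 (also its size factors), limma 3.58.1 voom with quality weights, no count filter, single libraries left out, only the groups compared, and a replicate block. Organoids with the same number deviated together (24 of 24 pairs, r 0.469 to 0.933), so the numbers pair them; in tumors 2 of 9 pairs exceeded 0.1. No replicates of a group were alike within sampling noise. Members and lists were chosen with earlier results of these data known. Genes given library by library are members called in a comparison or, with none called, the 3 with the smallest p; Zbp1 over both ASOs in tumors and between the systems, and Zbp1, Ifih1 and Tlr3 by organoid number, were added after their values were seen. Of each list at most the 4 genes with the smallest p are named. Of the genes most like each member, 1 is not reported here.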

Additional observations from a re-analysis of the deposited data

Results flagged for a closer look

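In ASO2 tumors, Tlr3 in tumor 4 lay far from the other libraries of its group, at 70.0 CPM against 50.3 to 52.1 CPM in the other 3, with a gap of over 0.829 of the group's range (Dixon's limit for 4 libraries). Of 50 groups of member values examined this was 1, where chance gives about 1 in 20. The summed interferon-response genes were also highest in that library of the group (2553 CPM, the others 1187 to 1638 CPM).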

How the results depend on the processing

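No count of members called against scASO or Mock differed from 0 under the alternatives run, except 1 with limma voom for both ASOs and for ASO2 against scASO in organoids (Myd88), and 1 for ASO1 against Mock with the replicate block and without the 2 libraries whose Malat1 went against their labels (Unc93b1). Between scASO organoids and scASO tumors the 4 calls became 7 with limma voom and 7 for all treated libraries, and 2 to 5 with single libraries left out. Genes called in all were 4392, against 10886 with limma voom, 10901 for treated libraries and 2632 to 4709 with single libraries left out. The fit of treated libraries took organoids of the same number as independent. Of 36 member fold changes 9 of 846 alternative values had the other sign: with limma voom Zbp1 in tumors (-0.21 with ASO1, -0.026 over both ASOs) and Tlr7 for organoid ASO1 (0.011), and with 1 library left out Tlr3, Zbp1 and Aim2 for tumor ASO1 (-0.014 to 0.49, -0.30 to 1.00 and -0.31 to 0.77), Zbp1 over both tumor ASOs (-0.015 to 0.64), Tlr7 for organoid ASO1 (-0.90 to 0.040) and Unc93b1 for organoid ASO2 against Mock (-0.26 to 0.023). The cause was not tested. In tumors, which share only a number, the replicate block called 0 genes and 0 members; in organoids it called 125, 402 and 292 genes for scASO, ASO1 and ASO2 against Mock, against 0 without it, and 0 members. Malat1 remaining in organoids was 15.8% without the 2 libraries, and 21.0 to 46.2% with single libraries left out (exact p 0.0303 to 0.291); in tumors it was 35.7 to 54.2% (exact p 0.0238 to 0.111). Low counts of Tlr9, Tlr7 and Aim2 in organoids limit what could be seen there.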
